A study of Homo sapiens with 12 samples.

Results

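The proteasome genes of 2 leukaemia lines were followed under a kinase inhibitor: 48 protein-coding genes whose symbols read PSM, a letter from A to G and a number, out of 36041 genes in the count table. RNA was sequenced in 12 libraries, 3 in each of 4 groups: MOLM13 cells given SGI-7079 at 10 nM for 24 h, MOLM13 cells given the solvent DMSO, MV411 cells (also written MV4-11) given SGI-7079 at the same dose and time, and MV411 cells given DMSO. Both are established acute myeloid leukaemia lines that carry an internal tandem duplication in FLT3, a receptor tyrosine kinase, so every group holds the mutant receptor. The study asked what SGI-7079, a small-molecule kinase inhibitor, does to transcription in such cells. Whether the replicates were cultured separately is not stated in the labels, so each p-value reflects the spread among the deposited libraries, part of which can be technical. In bulk RNA, fewer cells with a transcript and less of it per cell cannot be told apart.

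The proteasome degrades proteins tagged with ubiquitin and supplies peptides for antigen presentation. Its barrel, the 20S core, stacks rings of alpha subunits (PSMA genes) around rings of beta subunits (PSMB genes), which hold the proteolytic sites. The 19S regulator caps the barrel: its ATPases (PSMC) unfold the substrate, and its non-ATPase subunits (PSMD) bind and remove ubiquitin. Interferon-induced immunoproteasome subunits take the places of the constitutive catalytic ones, PSMB8 that of PSMB5, PSMB9 that of PSMB6 and PSMB10 that of PSMB7. Other caps are the PA28 activators (PSME1 with PSME2, and PSME3) and PA200 (PSME4), PSMF1 is an inhibitor of the core, and dedicated chaperones assemble the core (PSMG) and the regulator (PSMD5, PSMD9 and PSMD10). The transcription factor NFE2L1, also called NRF1, is known to drive proteasome genes together through antioxidant response elements.

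The 48 genes comprised 7 alpha and 7 constitutive beta subunits, 3 immunoproteasome subunits, 2 tissue-restricted core subunits, 6 ATPases, 11 non-ATPase subunits, 3 regulator chaperones, 5 genes of activators and the inhibitor, and 4 core chaperones. Of these, 47 passed the filter on low counts. PSMB11, a thymus-specific beta subunit, did not: it had 5 counts in MOLM13 DMSO replicate 3 and 0 in the other libraries. PSMA8, a testis-specific alpha subunit, passed only through MV411 and is described apart, which leaves 46 genes with counts in both lines.

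Promoter windows, from 250 bases before to 50 bases after a start site, were taken from RefSeq (GRCh38.p14) for 42 of the 48 genes, over 51 windows. They were searched on both strands for an interferon-response-like motif with the letters GAAANNGAAA, since the immunoproteasome and PA28 genes are known interferon targets. The motif was in windows of 7 of the 42 genes, 13.7% of the 51 windows, against 3.57% of 35116 RefSeq promoter windows. These 7 windows are printed along the strand of their gene, with the motif, or its reverse complement, in capitals. The first 4 belong to immunoproteasome and PA28 genes. Of the same classes, PSMB9 and PSME3 also had searched windows, without the motif.
PSMB8 (minus strand, chr6:32844032-32844061): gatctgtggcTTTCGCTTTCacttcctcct
PSMB10 (minus strand, chr16:67936852-67936881): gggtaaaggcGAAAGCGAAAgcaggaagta
PSME1 (plus strand, chr14:24136189-24136218): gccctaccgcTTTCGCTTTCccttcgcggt
PSME2 (minus strand, chr14:24146619-24146648): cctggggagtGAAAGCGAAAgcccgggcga
PSMG4 (plus strand, chr6:3258904-3258933): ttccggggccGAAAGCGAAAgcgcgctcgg
PSMB4 (plus strand, chr1:151399495-151399524): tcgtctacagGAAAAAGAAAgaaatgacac
PSMA4 (plus strand, chr15:78540155-78540184): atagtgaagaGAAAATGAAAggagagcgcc

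In PSMB8, PSMB10, PSME1, PSME2 and PSMG4 the matched letters were the same, read on one strand or the other, and lay within 33 bases of the start site. A second search used the letters TGACNNNGC, a short form of the antioxidant response element. It matched in windows of 15 of the 42 genes, 29.4% of the 51 windows, against 13.3% of all promoter windows. From these, 4 windows are shown, picked by the response of their genes to SGI-7079. PSMD12 and PSMG1 are among the genes with large decreases below, PSME1 and PSMG2 among those with small changes in MOLM13. The letters were also in windows of PSMA4, PSMB3, PSMB9, PSMC4, PSMC5, PSMD1, PSMD3, PSMD5, PSMD9, PSME2 and PSME4. Genes with and without the letters were not compared, and the part of the letters in the response was not tested.
PSMD12 (minus strand, chr17:67366723-67366752): agacaaaaccTGACGCTGCaggctggagtg
PSMG1 (minus strand, chr21:39183615-39183644): gcccagggcaTGACAGCGCgggcgggcggt
PSME1 (plus strand, chr14:24136098-24136127): atggcagggcTGACCCCGCctcctccatcc
PSMG2 (plus strand, chr18:12658689-12658718): cagtttcccgTGACCCCGCggccgctctgc
Another search, for the letters TTCNNNGAA of a STAT-like site, matched in windows of 8 of the 42 genes, 15.7% of the 51 windows, against 7.66% of all windows. PSMB8 and PSMB5 were among them. A match describes the letters only and is not evidence of a bound site.

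Levels between genes are given in FPKM, the authors' deposited values per length, and levels between libraries in CPM, counts scaled to library sizes with TMM factors. By FPKM, beta subunits had the higher median of the core. In DMSO their median over 7 genes was 48.2 FPKM in MV411 and 51.4 FPKM in MOLM13. The alpha subunits had 22.6 and 22.3 FPKM. In CPM, which is not divided by length, the order was the reverse. The alpha median was 158 CPM in MV411 DMSO and 136 CPM in MOLM13 DMSO, beside 103 and 110 CPM for the beta subunits. PSMA7, an alpha subunit, had the highest FPKM of all members in MV411 DMSO, at 89.8 ± 0.7 (SD, n = 3). In MOLM13 DMSO it was PSMB4, a non-catalytic beta subunit, at 99.8 ± 5.5. The lowest among the 46 was the chaperone PSMG4, at 1.65 ± 0.14 FPKM in MV411 DMSO and 1.71 ± 0.08 FPKM in MOLM13 DMSO. Subunits that assemble in equal numbers differed in FPKM. Among the ATPases the range was 6.06-fold in MOLM13 DMSO, from PSMC2 at 9.82 to PSMC3 at 59.5, and 6.67-fold in MV411 DMSO. Among the alpha subunits it was 5.10-fold in MOLM13 DMSO and 7.06-fold in MV411 DMSO. These ranges also depend on the length that FPKM assigns to each gene. In CPM the same genes lay closer: PSMC2 and PSMC3 had 97.5 and 156 CPM in MOLM13 DMSO, and 86.5 and 152 CPM in MV411 DMSO. PSMA2 and PSMA7, the ends of the alpha range, had 104 and 111 CPM in MOLM13 DMSO, and 115 and 170 CPM in MV411 DMSO. The part of length in the FPKM ranges was not tested. Among the immunoproteasome genes, PSMB10 was high and PSMB9 low: in MV411 DMSO they had 59.2 ± 3.2 and 3.31 ± 0.25 FPKM, and in MOLM13 DMSO 47.6 ± 2.4 and 3.995 ± 0.221 FPKM. PSMB8 lay between them, at 19.3 ± 0.8 FPKM in MV411 DMSO and 19.9 ± 0.7 FPKM in MOLM13 DMSO.

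**Figure D1:**
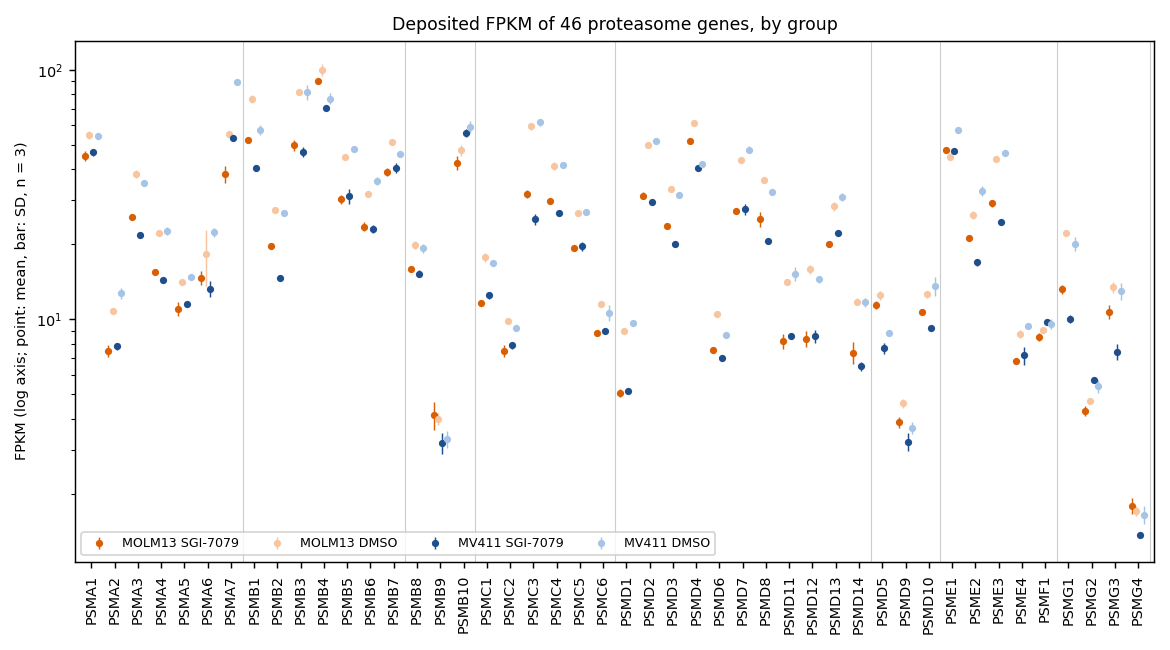
Deposited FPKM (log axis) of the 46 proteasome genes with counts in both lines, as the mean and SD of 3 libraries in each of the 4 groups; vertical lines separate the classes in the order alpha, beta, immunoproteasome, ATPase, non-ATPase, regulator chaperones, activators with the inhibitor, and core chaperones. The SGI-7079 points lie below the DMSO points for most genes, while PSMB9, at 4.12 and 3.995 FPKM in MOLM13 SGI-7079 and MOLM13 DMSO, stays level within its SD.

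SGI-7079 was set against DMSO in each line with edgeR's quasi-likelihood test over 21438 genes. The words rose and fell are kept for an adjusted p under 0.05 (Benjamini-Hochberg over all genes tested), and fold changes are log2 values with a standard error (SE). In MOLM13, 43 of the 46 proteasome genes fell and 0 rose, against 23.6% of all genes tested that fell and 23.2% that rose. Their median log2 fold change was -0.55, a level that decreased by 31.9%, beside a median of 0.05 over all genes. In MV411, 43 of 46 fell and 0 rose, against 24.3% and 27.2% of all genes. There the median was -0.71, a level that decreased by 38.7%, beside 0.11 over all genes. Proteasome genes are well expressed, and among the 11224 genes of at least 5 CPM on average the share that fell was 40.7% in MOLM13 and 41% in MV411. Every treated library lay below every control library for 42 of the members in MOLM13 and 43 in MV411. The same held for 27.4% of all genes tested in MOLM13 and 27.4% in MV411, and for 44.4% and 43.2% of those of at least 5 CPM. The decreases were moderate: 1 member in MOLM13 and 5 in MV411 passed an absolute log2 fold change of 1, as did 12.4% and 17.1% of all genes.

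The summed level of the 48 genes gives the size of the change in all. It was 3820, 3686 and 3848 CPM in the MOLM13 SGI-7079 libraries, against 5536, 5416 and 5590 CPM in MOLM13 DMSO. In MV411 it was 3393, 3277 and 3274 CPM with SGI-7079, against 5209, 5092 and 5315 CPM with DMSO. In both lines every treated library lay below every control library. In the same libraries the share of counts from mitochondrial ribosomal RNA genes was 0.940% ± 0.020 with SGI-7079 and 0.534% ± 0.015 with DMSO in MOLM13 (SD, n = 3 each), and 0.837% ± 0.027 and 0.406% ± 0.007 in MV411. Total counts were 52352252 to 61862017 per library. All 8 markers of myeloid leukaemia lines were detected, summing to 2391 to 2453 CPM in MOLM13 SGI-7079, 1912 to 1973 CPM in MOLM13 DMSO, 3657 to 3762 CPM in MV411 SGI-7079 and 3323 to 3485 CPM in MV411 DMSO. Of 5 B cell markers 4 were detected, summing to 7.59 to 10.7 and 15.0 to 16.8 CPM in MOLM13 SGI-7079 and MOLM13 DMSO, and to 4.24 to 5.06 and 3.58 to 4.60 CPM in MV411 SGI-7079 and MV411 DMSO. Of 5 T cell markers 3 were detected, summing to 2.15 to 2.84 CPM and 5.73 to 6.80 CPM in MOLM13 SGI-7079 and MOLM13 DMSO and to at most 1.504 CPM in MV411. Most of the MOLM13 sums came from 1 gene each. PAX5 of the B cell list had 8.06 and 15.1 CPM in MOLM13 SGI-7079 and MOLM13 DMSO, and TRAC of the T cell list 2.34 and 5.66 CPM. TRAC was the only T cell marker with a group mean over 1 CPM. Within the myeloid list, MPO and LYZ had lower means with SGI-7079 in both lines, and the other markers higher means. MPO had 14.1 CPM in MOLM13 SGI-7079 and 37.6 in MOLM13 DMSO, and 4.20 and 9.63 CPM in MV411 SGI-7079 and MV411 DMSO. For CSF1R these were 31.7 and 5.84 CPM in MOLM13, and 150 and 55.4 CPM in MV411. The summed erythroid, epithelial and fibroblast lists stayed under 1 CPM in every library, with haemoglobin HBB and the epithelial marker EPCAM at or near 0. The part of these values in the proteasome result was not tested.

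**Figure D2:**
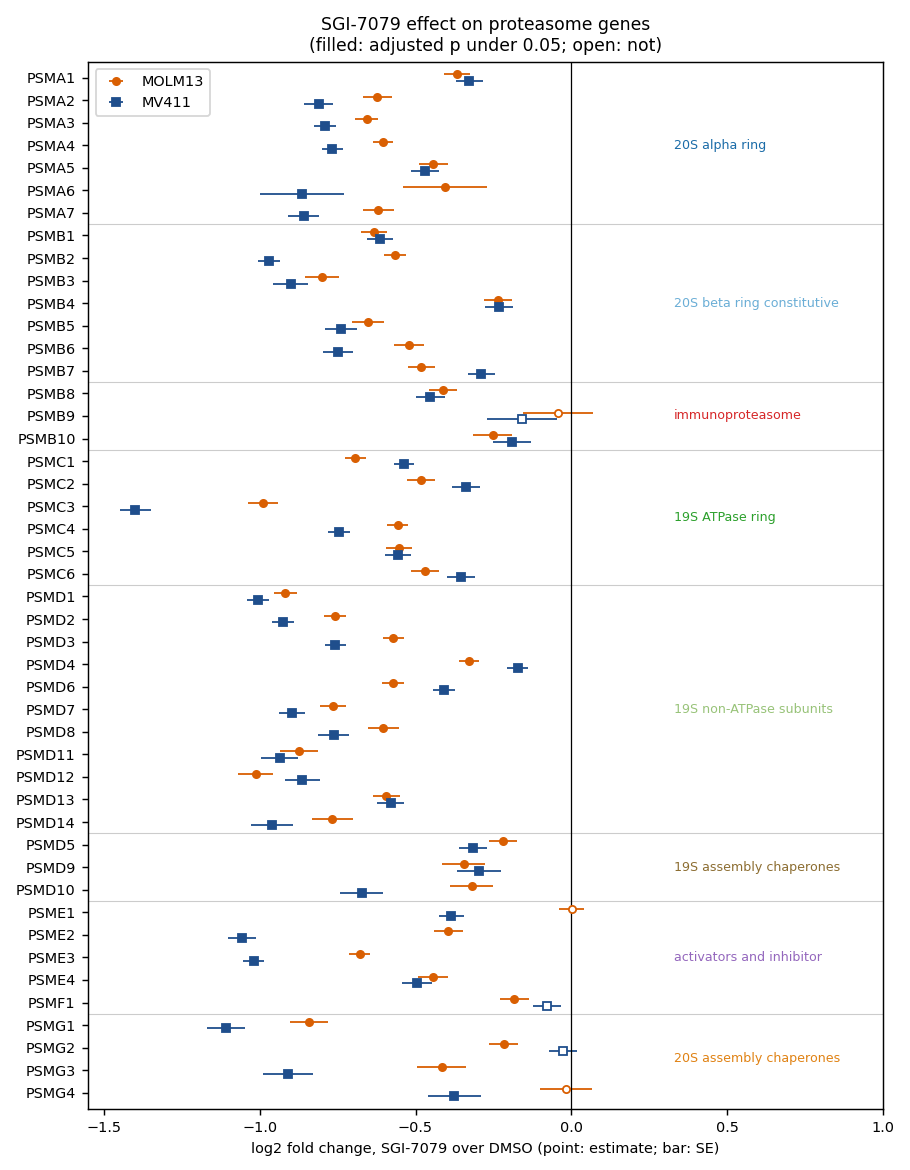
Log2 fold change of SGI-7079 over DMSO for 46 proteasome genes in MOLM13 (circles) and MV411 (squares), grouped by class; bars are SE from a fit to 12 libraries, and open symbols mark an adjusted p of 0.05 or more. Every filled symbol lies left of 0, and the open symbols nearest to 0 are PSME1, PSMG4 and PSMB9 in MOLM13 and PSMG2, PSMF1 and PSMB9 in MV411.

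The constitutive core fell as a whole. All 14 constitutive alpha and beta subunits fell in both lines, with a median log2 fold change of -0.59 in MOLM13 and -0.76 in MV411. The catalytic subunit PSMB5, which carries the chymotrypsin-like activity, had 48.3, 51.0 and 52.9 CPM in MOLM13 SGI-7079 libraries, against 78.4, 79.9 and 80.8 CPM in MOLM13 DMSO. In MV411 it had 51.3, 49.7 and 44.2 CPM with SGI-7079, against 80.3, 81.5 and 80.8 CPM with DMSO. Its groups did not overlap in either line, and its log2 fold changes were -0.65 ± 0.05 (SE, adjusted p = 1.7e-07) and -0.74 ± 0.05 (adjusted p = 3.0e-08).

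PSMB6, the caspase-like subunit, had 35.3, 37.6 and 37.7 CPM in MOLM13 SGI-7079, against 53.8, 52.5 and 52.3 CPM in MOLM13 DMSO. The MV411 values were 35.1, 33.5 and 31.9 CPM with SGI-7079, against 58.4, 55.2 and 55.2 CPM with DMSO. Again no treated library reached a control library, with log2 fold changes of -0.52 ± 0.05 in MOLM13 and -0.75 ± 0.05 in MV411. PSMB7, the trypsin-like subunit, had 75.1, 72.4 and 79.2 CPM in MOLM13 SGI-7079, against 110, 102 and 104 CPM in MOLM13 DMSO. In MV411 its values were 70.8, 71.9 and 75.8 CPM with SGI-7079, against 85.9, 89.6 and 91.4 CPM with DMSO. It fell in both lines, by 0.48 on the log2 scale in MOLM13 and by 0.29 in MV411.

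The smallest change of the constitutive core was that of PSMB4. It had 212, 201 and 208 CPM in MOLM13 SGI-7079, against 240, 232 and 258 CPM in MOLM13 DMSO. Its MV411 libraries held 152, 149 and 150 CPM with SGI-7079, against 170, 172 and 188 CPM with DMSO. The groups did not overlap, and it fell by 0.23 on the log2 scale in each line (SE 0.05 in both, adjusted p = 0.00068 in MOLM13 and 0.00062 in MV411). The largest change of the core was that of PSMB3 in MOLM13, at -0.80 ± 0.06, and of PSMB2 in MV411, at -0.97 ± 0.03; both are non-catalytic beta subunits. PSMA6, an alpha subunit, varied between replicates: it had 102, 96.2 and 111 CPM in MOLM13 SGI-7079, against 99.5, 145 and 165 CPM in MOLM13 DMSO. One control library lay within the treated range, and its call in MOLM13 (-0.41 ± 0.13, adjusted p = 0.024) was lost in 8 of 20 alternatives, among them without MOLM13 DMSO replicate 2 or 3 and without MOLM13 SGI-7079 replicate 1 or 2. Another gene, ENSG00000258790, spans PSMA6 on the same strand with 52.3 CPM in MOLM13 SGI-7079 and 67.0 CPM in MOLM13 DMSO. In MOLM13 DMSO replicates 1, 2 and 3 it had 6549, 3122 and 1351 counts, where PSMA6 had 5399, 8008 and 9392. In MOLM13 SGI-7079 it had 3415, 3608 and 2062 counts, where PSMA6 had 5844, 5876 and 6027. Reads of the pair may be split between them, which was not tested.

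The immunoproteasome subunits had smaller fold changes than most of the core. PSMB8 and PSMB10 fell in both lines and PSMB9 passed the test in neither, and the median of the 3 genes was -0.25 in MOLM13 and -0.19 in MV411, beside -0.59 and -0.76 for the constitutive core. PSMB8 had 60.3, 59.4 and 59.9 CPM in MOLM13 SGI-7079, against 82.9, 79.7 and 76.2 CPM in MOLM13 DMSO. For MV411 the libraries gave 55.6, 52.8 and 51.3 CPM with SGI-7079, against 72.3, 69.5 and 76.7 CPM with DMSO. Treated and control libraries did not overlap, and its log2 fold changes were -0.41 ± 0.05 (adjusted p = 5.3e-06) and -0.45 ± 0.05 (adjusted p = 1.6e-06).

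PSMB9 had 17.02, 14.2 and 13.4 CPM in MOLM13 SGI-7079, against 15.6, 14.3 and 16.1 CPM in MOLM13 DMSO. MV411 libraries had 11.7, 9.498 and 11.0 CPM with SGI-7079, against 11.9, 12.8 and 11.2 CPM with DMSO. The groups overlapped in both lines, at log2 fold changes of -0.04 ± 0.11 (adjusted p = 0.80) and -0.16 ± 0.11 (adjusted p = 0.27). Its gene overlaps TAP1, a peptide transporter gene on the opposite strand, over 8509 bases of their spans, and no source used here states whether counting used the strand. TAP1 itself had log2 fold changes of 0.09 in MOLM13 and 0.06 in MV411 and passed the test in neither. On the same strand, PSMB8-AS1 overlaps PSMB9 over 2365 bases of their spans. It had 8.39 and 8.25 CPM in MOLM13 SGI-7079 and MOLM13 DMSO, and 12.8 and 13.7 CPM in MV411 SGI-7079 and MV411 DMSO. Whether PSMB9 shares reads with either gene was not tested.

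PSMB10 had 76.7, 68.8 and 78.6 CPM in MOLM13 SGI-7079, against 93.5, 83.3 and 90.3 CPM in MOLM13 DMSO. In MV411 it had 95.6, 87.3 and 91.2 CPM with SGI-7079, against 104, 97.7 and 111 CPM with DMSO. The groups were close but did not overlap, at -0.25 ± 0.06 (adjusted p = 0.0039) and -0.19 ± 0.06 (adjusted p = 0.018). In MV411 that call was lost in 5 of 20 alternatives, among them without MV411 DMSO replicate 3 and without MV411 SGI-7079 replicate 2, with log2 fold changes of -0.16 to -0.08 in those 5.

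The ratio of immunoproteasome to constitutive transcript was higher on average with SGI-7079 for all 3 pairs in both lines. PSMB8 to PSMB5 in FPKM was 0.526 ± 0.027 in MOLM13 SGI-7079 and 0.445 ± 0.026 in MOLM13 DMSO (SD, n = 3 each), and 0.490 ± 0.023 and 0.401 ± 0.021 in MV411 SGI-7079 and MV411 DMSO. PSMB9 to PSMB6 was 0.176 ± 0.029 and 0.126 ± 0.008 in MOLM13, and 0.138 ± 0.014 and 0.0920 ± 0.0072 in MV411, for SGI-7079 and DMSO in that order. For both pairs the lowest treated ratio exceeded the highest control ratio in each line. PSMB10 to PSMB7 was 1.09 ± 0.04 in MOLM13 SGI-7079 and 0.927 ± 0.031 in MOLM13 DMSO without overlap. In MV411 it was 1.38 ± 0.09 with SGI-7079 and 1.29 ± 0.08 with DMSO, and these ranges, 1.32 to 1.49 and 1.199 to 1.33, overlapped. The ratios are given as a description, with no test.

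**Figure D3:**
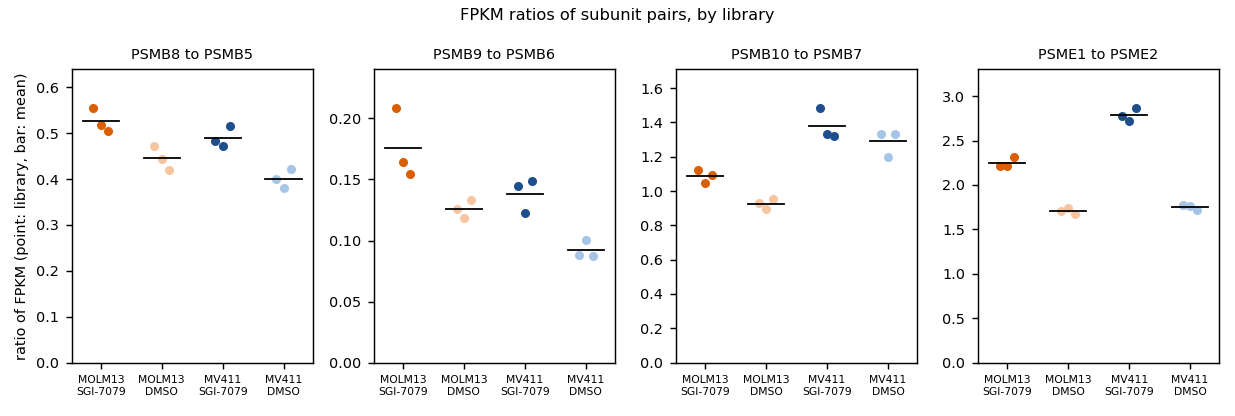
FPKM ratios of each immunoproteasome subunit to the constitutive subunit it replaces, and of PSME1 to PSME2, in each library (points) with the group mean (bars), for SGI-7079 and DMSO in MOLM13 and MV411. Treated libraries lie above control libraries in all panels and both lines except for PSMB10 to PSMB7 in MV411, where the ranges meet at 1.32 to 1.33.

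The 19S regulator fell as a whole as well. All 6 ATPases and 11 non-ATPase subunits fell in both lines, with a median over the 17 of -0.60 in MOLM13 and -0.76 in MV411. PSMC3, an ATPase, had the largest decrease of all members in MV411, with 60.3, 58.6 and 53.9 CPM with SGI-7079, against 155, 146 and 155 CPM with DMSO. In MOLM13 it had 78.2, 75.0 and 82.0 CPM with SGI-7079, against 161, 149 and 157 CPM with DMSO. The groups lay far apart, and the fold changes were -1.40 ± 0.05 (adjusted p = 3.3e-11), 2.64-fold lower, and -0.99 ± 0.05 (adjusted p = 1.9e-09), 1.99-fold lower. The other 5 ATPases had log2 fold changes between -0.75 and -0.34 in MV411 and between -0.69 and -0.47 in MOLM13.

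PSMD12, a subunit of the regulator's lid, had the largest decrease in MOLM13, with 44.5, 48.5 and 51.99 CPM with SGI-7079, against 95.1, 95.9 and 102 CPM with DMSO. The MV411 values were 44.2, 44.8 and 48.9 CPM with SGI-7079, against 85.7, 83.8 and 81.5 CPM with DMSO. It fell by 1.01 on the log2 scale in MOLM13 (SE 0.06, adjusted p = 5.6e-09) and by 0.86 in MV411, without overlap of the groups. PSMD1, a scaffold of the regulator's base, had 90.1, 83.8 and 86.0 CPM in MOLM13 SGI-7079, against 166, 166 and 159 CPM in MOLM13 DMSO. Its MV411 libraries held 83.4, 79.2 and 83.6 CPM with SGI-7079, against 161, 166 and 167 CPM with DMSO. Its log2 fold changes were nearly equal in the lines, at -0.92 ± 0.04 (adjusted p = 2.2e-10) and -1.01 ± 0.04 (adjusted p = 3.7e-11). The deubiquitinase PSMD14 fell by 0.77 on the log2 scale in MOLM13 and by 0.96 in MV411, and its partner PSMD7 by 0.76 and 0.90.

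Among the non-ATPase subunits the smallest decrease was that of PSMD4, a ubiquitin receptor. It had 171, 166 and 173 CPM in MOLM13 SGI-7079, against 221, 208 and 211 CPM in MOLM13 DMSO, and fell by 0.33 on the log2 scale. For MV411 the libraries gave 126, 122 and 118 CPM with SGI-7079, against 137, 136 and 140 CPM with DMSO, a log2 fold change of -0.17 ± 0.03 (adjusted p = 0.00063). The groups did not overlap, although under total-count scaling the MV411 value was -0.06 and did not pass the test. PSMD6, a lid subunit, had 76.1, 72.1 and 72.7 CPM in MOLM13 SGI-7079, against 112, 108 and 109 CPM in MOLM13 DMSO, and 63.3, 65.4 and 62.4 CPM in MV411 SGI-7079, against 85.3, 81.8 and 86.6 CPM in MV411 DMSO. It fell by 0.57 on the log2 scale in MOLM13 and by 0.41 in MV411.

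The 3 chaperones of the regulator fell in both lines, with a median of -0.32 in each. PSMD5 had 52.2, 55.6 and 54.6 CPM in MOLM13 SGI-7079, against 61.3, 65.8 and 62.1 CPM in MOLM13 DMSO. MV411 libraries had 32.4, 34.8 and 34.1 CPM with SGI-7079, against 41.9, 41.2 and 43.0 CPM with DMSO. These groups did not overlap, at -0.22 ± 0.05 (adjusted p = 0.0011) and -0.32 ± 0.05 (adjusted p = 5.0e-05). PSMD10, also known as gankyrin, fell by 0.32 on the log2 scale in MOLM13 and by 0.67 in MV411.

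Activators and the inhibitor did not move evenly. PSME1 and PSME2 encode the alpha and beta chains of a shared ring, PA28, that opens the core, and they are neighbours on chromosome 14. PSME1 had 91.1, 91.1 and 93.1 CPM in MOLM13 SGI-7079, against 95.9, 88.9 and 90.3 CPM in MOLM13 DMSO. In MV411 it had 88.2, 81.3 and 84.1 CPM with SGI-7079, against 108, 108 and 115 CPM with DMSO. The groups overlapped in MOLM13, at 0.00 ± 0.04 (adjusted p = 1.0), and did not in MV411, at -0.39 ± 0.04 (adjusted p = 1.9e-06). On log2 FPKM the MOLM13 value was 0.09 and passed the test of limma at an adjusted p of 0.032 or 0.033, depending on the pseudocount; that was the only rise of a member in that line.

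PSME2 fell in both lines. It had 82.9, 83.1 and 81.4 CPM in MOLM13 SGI-7079, against 113, 103 and 109 CPM in MOLM13 DMSO. The MV411 values were 64.1, 60.2 and 59.2 CPM with SGI-7079, against 123, 124 and 135 CPM with DMSO. The decrease was the larger in MV411, at -1.06 ± 0.05 (adjusted p = 2.5e-10) against -0.39 ± 0.05 (adjusted p = 7.4e-06) in MOLM13. The FPKM ratio of PSME1 to PSME2 was 2.25 ± 0.06 in MOLM13 SGI-7079 and 1.71 ± 0.03 in MOLM13 DMSO, and 2.79 ± 0.07 in MV411 SGI-7079 and 1.75 ± 0.03 in MV411 DMSO (SD, n = 3 each), without overlap in either line.

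PSME3, the nuclear PA28 gamma activator, had 163, 156 and 169 CPM in MOLM13 SGI-7079, against 262, 254 and 266 CPM in MOLM13 DMSO. Its MV411 libraries held 131, 126 and 125 CPM with SGI-7079, against 254, 255 and 265 CPM with DMSO. It fell by 0.68 on the log2 scale in MOLM13 and by 1.02 in MV411 (SE 0.03 in both, adjusted p = 2.5e-09 and 2.4e-11). PSME4, the PA200 activator, fell by 0.44 and by 0.50. PSMF1, the inhibitor, had 94.7, 91.4 and 99.5 CPM in MOLM13 SGI-7079, against 108, 105 and 112 CPM in MOLM13 DMSO. For MV411 the libraries gave 106, 101 and 98.8 CPM with SGI-7079, against 108, 102 and 113 CPM with DMSO. It fell in MOLM13 (-0.18 ± 0.05, adjusted p = 0.0046), a call lost in 3 of 20 alternatives. Its groups overlapped in MV411 at -0.08 ± 0.05 (adjusted p = 0.17), where 11 of 20 alternatives did call it lower. Among them were those without any 1 MOLM13 library, MV411 DMSO replicate 1 or 2, or MV411 SGI-7079 replicate 1. In those 11 the median over all genes in MV411 was 0.03 to 0.06, against 0.11 in the test given above.

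The core chaperones act in pairs, PSMG1 with PSMG2 and PSMG3 with PSMG4, and in each pair one gene changed more than its partner. PSMG1 had 30.4, 29.4 and 32.4 CPM in MOLM13 SGI-7079, against 56.5, 54.1 and 54.7 CPM in MOLM13 DMSO. MV411 libraries had 23.0, 21.2 and 21.0 CPM with SGI-7079, against 50.0, 43.9 and 46.7 CPM with DMSO. It fell by 0.84 on the log2 scale in MOLM13 and by 1.11 in MV411 (adjusted p = 6.7e-08 and 2.9e-09), without overlap. PSMG2 had 59.1, 59.7 and 55.5 CPM in MOLM13 SGI-7079, against 67.7, 66.0 and 68.8 CPM in MOLM13 DMSO. In MV411 it had 74.5, 70.5 and 70.2 CPM with SGI-7079, against 77.6, 71.7 and 69.9 CPM with DMSO. It fell in MOLM13 (-0.22 ± 0.05, adjusted p = 0.0015), a call lost on log2 FPKM, and its groups overlapped in MV411 (-0.03 ± 0.05, adjusted p = 0.67).

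PSMG3 had 23.4, 23.8 and 21.4 CPM in MOLM13 SGI-7079, against 29.5, 32.0 and 30.1 CPM in MOLM13 DMSO. The MV411 values were 14.7, 13.6 and 15.8 CPM with SGI-7079, against 30.0, 25.6 and 27.3 CPM with DMSO. It fell in both lines, at -0.42 ± 0.08 (adjusted p = 0.00062) and -0.91 ± 0.08 (adjusted p = 3.7e-07). PSMG4 had a log2 fold change of -0.02 ± 0.08 in MOLM13 (adjusted p = 0.91) and fell by 0.37 in MV411 (adjusted p = 0.0019).

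**Figure D4:**
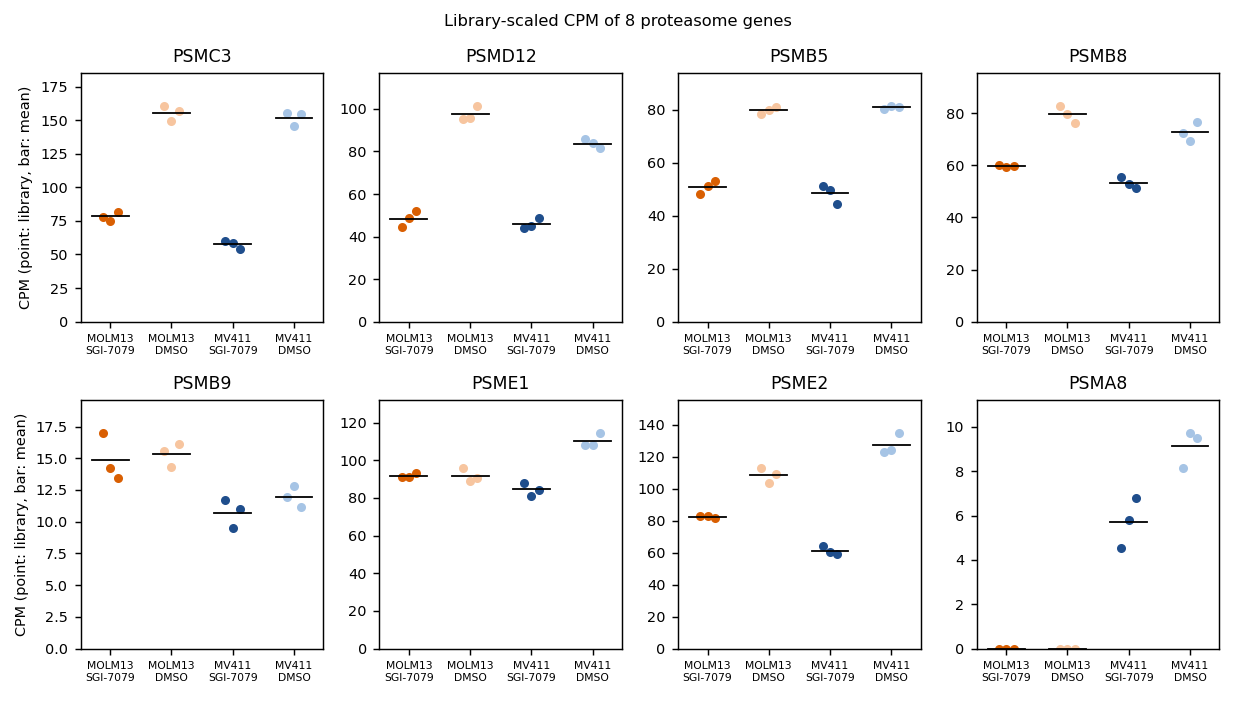
CPM of 8 proteasome genes in each library (points; bars are group means of 3 libraries), with SGI-7079 left of DMSO for MOLM13 and MV411. PSMC3, PSMD12, PSMB5 and PSMB8 are lower with SGI-7079 in both lines, PSMB9 overlaps, PSME1 passes the test in MV411 alone, and PSMA8 has counts in MV411 alone.

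PSMA8 had 0 counts in all 6 MOLM13 libraries. Its MV411 libraries held 292, 359 and 384 counts with SGI-7079, against 465, 583 and 578 with DMSO, which is 4.51, 5.82 and 6.79 CPM against 8.13, 9.74 and 9.495 CPM. The groups did not overlap, and it fell by 0.68 on the log2 scale in MV411 (SE 0.20, adjusted p = 0.020). Against a floor of 3 counts per library in MOLM13, its level was at least 169-fold higher in MV411 DMSO than in MOLM13 DMSO and at least 109-fold higher in MV411 SGI-7079 than in MOLM13 SGI-7079. DHFRP1, a pseudogene on the opposite strand that overlaps PSMA8 over 559 bases, was counted in both lines, at 14.7 CPM in MOLM13 SGI-7079, 31.4 in MOLM13 DMSO, 4.59 in MV411 SGI-7079 and 18.2 in MV411 DMSO.

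The effects in the lines were compared gene by gene and then by a test of their difference. Of the 46 genes, 41 fell in both lines, PSMF1 and PSMG2 passed the test in MOLM13 alone, PSME1 and PSMG4 in MV411 alone, and PSMB9 in neither. Across these genes, which are not independent replicates and share libraries and scaling within a line, the log2 fold changes had a Pearson r of 0.767 and a Spearman rho of 0.751, given as a description. The decrease was larger in MV411 for 31 genes and in MOLM13 for 15. Of all genes tested, 23.6% fell in MOLM13 and 24.3% in MV411, or 40.7% and 41% of those of at least 5 CPM. The share that fell in both lines was not counted over all genes, nor were the correlations and the split. These values are therefore not read as particular to proteasome genes.

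**Figure D5:**
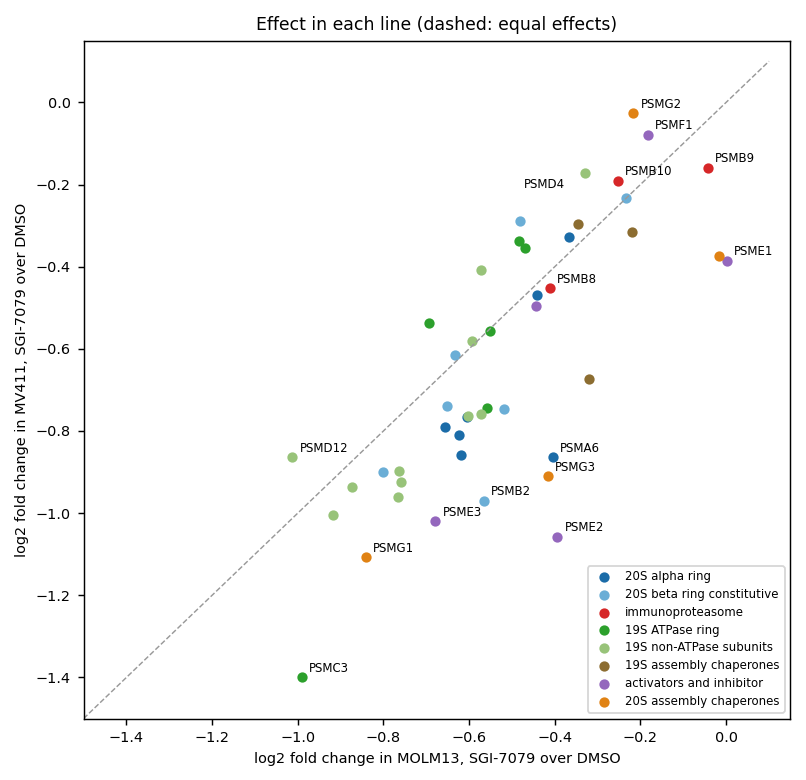
Log2 fold change of SGI-7079 over DMSO in MV411 (vertical) against MOLM13 (horizontal) for 46 proteasome genes, coloured by class; the dashed line marks equal effects. Points below the line had the larger decrease in MV411 (31 genes), with PSME2, PSMC3, PSMG3 and PSME1 among the farthest from it.

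In the test of the difference (MV411 minus MOLM13), 15 members had a more negative effect in MV411 and 4 a less negative one, against 11.8% and 8.85% of all genes. The 15 became 9 without MV411 SGI-7079 replicate 2 and ranged from 9 to 22 with 1 library left out. Among the members that passed, the differences of largest size were those of PSME2 (-0.66 ± 0.06, adjusted p = 9.4e-06), PSMG3 (-0.49 ± 0.11, adjusted p = 0.0064) and PSMC3 (-0.41 ± 0.07, adjusted p = 0.00082). PSMB2 followed at -0.40, PSME1 at -0.39, PSMG4 at -0.36, PSMD10 at -0.35 and PSME3 at -0.34. PSMA6 had -0.46 ± 0.19 and did not pass (adjusted p = 0.12). By class, 3 of 5 activators and inhibitor and 3 of 4 core chaperones were among the 15, with 4 of the 14 constitutive core subunits, 4 of the 17 regulator subunits, 1 of 3 regulator chaperones and 0 of 3 immunoproteasome subunits. Of the core chaperones, PSMG4 lost the call in 7 of 19 alternatives and PSMG1 in 3, both without MV411 DMSO replicate 3 and without MV411 SGI-7079 replicate 2 or 3 among them. The difference for the immunoproteasome genes was -0.04 ± 0.06 for PSMB8, -0.12 ± 0.16 for PSMB9 and 0.06 ± 0.09 for PSMB10. The 4 less negative in MV411 were PSMB7 (0.19 ± 0.06, adjusted p = 0.042), PSMD6 (0.16 ± 0.05, adjusted p = 0.035), PSMD4 (0.16 ± 0.05, adjusted p = 0.032) and PSMC1 (0.16 ± 0.05, adjusted p = 0.030). Each of these 4 lost the call in 11 to 13 of 19 alternatives, most of which leave out 1 library. The count of less negative members was 0 without any 1 MOLM13 library, without MV411 DMSO replicate 1 or 2, or without MV411 SGI-7079 replicate 1 or 2. Except without MV411 SGI-7079 replicate 2, these fits had a median difference over all genes of -0.10 to -0.09, against -0.01 with 12 libraries. Relative to all genes, the members' median difference lay between -0.11 and -0.07 in every setting.

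Without treatment the lines differed in both directions. Set as MV411 DMSO over MOLM13 DMSO, 6 of the 46 genes were higher and 18 lower in MV411, against 27.7% and 26.5% of all genes, with a median log2 fold change of -0.08 beside 0.03 over all genes. That split depended on scaling: 11 were higher and 12 lower with total counts as library sizes and on log2(FPKM + 1), and 10 and 12 on log2(FPKM + 0.1). These control libraries also serve in the treatment comparisons, so the values of both kinds are set side by side only. PSMA7 had 170, 168 and 173 CPM in MV411 DMSO, against 111, 113 and 110 CPM in MOLM13 DMSO (0.61 ± 0.05, adjusted p = 1.4e-07). With SGI-7079 it had 96.8, 93.9 and 90.9 CPM in MV411 and 76.7, 65.6 and 75.4 CPM in MOLM13, and it fell in both lines. PSME1 and PSME2 were higher in MV411 DMSO, by 0.27 ± 0.04 and 0.23 ± 0.05, and so was PSMB10, by 0.23 ± 0.06.

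Lower in MV411 DMSO were PSMD4 (-0.63 ± 0.03, adjusted p = 1.9e-09), PSMD5 (-0.59 ± 0.05, adjusted p = 9.3e-08) and PSMB1 (-0.50 ± 0.04, adjusted p = 2.2e-07), with PSMD4 and PSMD5 in the libraries given above. PSMB1, a non-catalytic beta subunit, had 144, 132 and 138 CPM in MV411 DMSO, against 206, 189 and 192 CPM in MOLM13 DMSO. With SGI-7079 it had 90.7, 92.2 and 87.6 CPM in MV411 and 126, 122 and 130 CPM in MOLM13. None of these 4 groups overlapped another. PSMB9 was lower in MV411 DMSO at -0.36 ± 0.11 (adjusted p = 0.016), and PSMB8 at -0.13 ± 0.05 (adjusted p = 0.029) with groups that overlapped. The PSMB9 call was lost in 3 of 20 alternatives, without MOLM13 DMSO replicate 3 or MV411 DMSO replicate 3 among them, and the PSMB8 call in 8, without replicate 1 or 2 of either DMSO group among them. PSMB5 and PSMB6 did not pass between the lines, at 0.02 ± 0.05 and 0.09 ± 0.05. PSMB6 did pass as higher in MV411 DMSO in 3 alternatives, at 0.18 with total counts (adjusted p = 0.0053) and at 0.17 and 0.18 in the limma fits to log2 FPKM (adjusted p = 0.0019 in both).

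Genes that work with the proteasome were counted from lists chosen with earlier results of these data known. Of 10 proteasome partners outside the PSM names, 7 fell and 0 rose in MOLM13, and 6 fell and 1 rose in MV411, beside 23.6% and 23.2% of all genes in MOLM13 and 24.3% and 27.2% in MV411. Among genes of at least 5 CPM, 40.7% fell in MOLM13 and 41% in MV411. The median log2 fold change of the 10 partners was -0.32 in MOLM13 and -0.40 in MV411, beside 0.05 and 0.11 over all genes. POMP, which assists the maturation of the beta ring, had 82.8 ± 2.3 CPM in MOLM13 SGI-7079 and 145 ± 1 CPM in MOLM13 DMSO, and 39.9 ± 2.8 and 75.1 ± 2.2 CPM in MV411 SGI-7079 and MV411 DMSO (SD, n = 3 each). It fell by 0.81 on the log2 scale in MOLM13 and by 0.91 in MV411. The regulator's deubiquitinases USP14 and UCHL5 fell too, USP14 by 0.55 and 0.75 and UCHL5 by 0.77 and 1.29. ECPAS, a proteasome adaptor, fell by 0.22 in MOLM13 and rose in MV411, by 0.15 ± 0.03 (adjusted p = 0.00095).

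Of 18 genes of ubiquitin supply and delivery, 14 fell and 2 rose in MOLM13, and 14 fell and 3 rose in MV411, beside the same shares of all genes (23.6% and 23.2%, 24.3% and 27.2%) and, for genes of at least 5 CPM, 40.7% and 41% that fell. The list's median was -0.34 in MOLM13 and -0.46 in MV411. The ubiquitin gene UBB fell by 0.57 on the log2 scale in MOLM13 and by 0.66 in MV411, and the unfolding ATPase VCP by 0.63 and 0.76. RPS27A, which encodes ubiquitin fused to a ribosomal protein, rose in both, by 0.23 ± 0.03 and 0.13 ± 0.03. NPLOC4, a cofactor of VCP, had -0.09 ± 0.04 in MOLM13 (adjusted p = 0.093) and rose in MV411 at 0.26 ± 0.04.

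Of 10 genes listed for control by NFE2L1, 9 were tested, and DDI1 did not pass the filter on low counts. In MOLM13 3 fell and 2 rose, or 33.3% and 22.2%, beside 23.6% and 23.2% of all genes. In MV411 2 fell and 1 rose, or 22.2% and 11.1%, beside 24.3% and 27.2%. The median was -0.01 in each line, and the counts are not read as a result about the list. NFE2L1 itself had 109 ± 5 CPM in MOLM13 SGI-7079 and 125 ± 1 CPM in MOLM13 DMSO, and 131 ± 5 and 154 ± 4 CPM in MV411 SGI-7079 and MV411 DMSO. It fell by 0.20 on the log2 scale (adjusted p = 0.00063) and by 0.23 (adjusted p = 0.00018). NGLY1, an enzyme that strips sugars from the factor, rose in MOLM13 at 0.47 ± 0.06 and had 0.14 ± 0.06 in MV411 (adjusted p = 0.066). DDI2, the protease that cleaves it, had -0.09 ± 0.05 in MOLM13 (adjusted p = 0.14) and rose in MV411 at 0.23 ± 0.05. The related factor NFE2L2 fell in MOLM13 by 0.30 on the log2 scale and had -0.01 ± 0.04 in MV411. MAFK, a partner of both factors on DNA, rose by 0.37 ± 0.05 in MOLM13 and fell by 0.16 in MV411.

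Of 17 interferon and antigen presentation genes, MOLM13 had 9 that rose and 4 that fell, beside 23.2% and 23.6% of all genes, and MV411 had 8 and 6, beside 27.2% and 24.3%. The median was 0.15 in MOLM13 and 0.06 in MV411. STAT2, a transcription factor of the interferon response, had 139 ± 7 CPM in MOLM13 SGI-7079 and 61.3 ± 2.7 CPM in MOLM13 DMSO, and 232 ± 6 and 69.7 ± 3.2 CPM in MV411 SGI-7079 and MV411 DMSO. It rose by 1.18 ± 0.05 (adjusted p = 2.2e-10) and by 1.73 ± 0.05 (adjusted p = 2.5e-12). The peptide-trimming enzyme ERAP2 rose by 0.31 ± 0.07 and 0.95 ± 0.08. Both chaperones of peptide loading named by the rule fell, CALR by 0.95 on the log2 scale in MOLM13 and by 1.54 in MV411, and PDIA3 by 0.62 and 0.84.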

How the data were processed

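RNA of 12 libraries was selected on oligo(dT) beads and sequenced in pairs as strand-marked libraries, per the labels' protocols. The submitters' processing notes list genome build hg38 and, as tools, HISAT2 2.2.1, cutadapt 1.9, edgeR, DESeq2 and StringTie 2.1.6; the design text names featureCounts. Per the file headers, the authors deposited unnormalized counts and FPKM for each gene and library. How strand and multi-matching reads were handled is not given there, so that genes overlapping others (27 of the 48) or with processed pseudogenes (21 in the table, the highest with 2694 counts in all) are uncertain.

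The count test was edgeR's quasi-likelihood F test (edgeR 4.0.16, R 4.3.3): TMM scaling, the filterByExpr filter at a minimum count of 10, 1 mean per group over 12 libraries, and Benjamini-Hochberg adjustment over 21438 genes. SE was taken as the log2 fold change over the root of its F value, without sign. CPM used TMM-scaled library sizes. The test was also run on counts simulated with the spread that edgeR itself had fitted, which cannot show that its model suits these libraries. Alternatives, with DESeq2 1.42.0 and limma 3.58.1 among them, are given in the closing section. Between replicates of a group the chi-square statistic was 9.31 to 13.7 for each degree of freedom, above sampling noise.

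Library values are given for the immunoproteasome genes, their constitutive partners, PSME1 and PSME2, and, in each comparison, the 3 members with the largest and the 3 with the smallest log2 fold change among those with an adjusted p under 0.05, and any beyond an absolute log2 fold change of 1. Of each list of related genes, the 2 with the smallest adjusted p per direction and line are named, except a few that are not reported here. PSMA6, PSMB2, PSMB3, PSMD7, PSMD10, PSMD14, PSME4, PSMG4, PSMC1, TAP1, PSMB8-AS1, DHFRP1 and ENSG00000258790 were added after their values were seen. The members and lists were chosen with earlier results of these data known.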

Additional observations from a re-analysis of the deposited data

Results flagged for a closer look

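The effect of SGI-7079 differed between the lines for 19 members by edgeR's quasi-likelihood test of the difference itself (adjusted p under 0.05). Differences are MV411 minus MOLM13 on the log2 scale. Of the 46 genes, 32.6% had a more negative effect in MV411 and 8.70% a less negative one, against 11.8% and 8.85% of all genes tested. The more negative effects in MV411 were those of PSME2 (-0.66), PSMG3 (-0.49), PSMC3 (-0.41), PSMB2 (-0.40), PSME1 (-0.39), PSMG4 (-0.36), PSMD10 (-0.35), PSME3 (-0.34), PSMG1 (-0.27), PSMA7 (-0.24), PSMB6 (-0.23), PSMC4 (-0.19), PSMD3 (-0.19), PSMD2 (-0.17) and PSMA4 (-0.16). PSMC1 (0.16), PSMD4 (0.16), PSMD6 (0.16) and PSMB7 (0.19) had less negative effects in MV411. In that order, they lost the call in 11, 11, 12 and 13 of 19 alternatives. Their count is near the share of all genes and is not read as a result about the members. PSME2, PSMG3, PSMC3, PSMB2, PSME1, PSMD10, PSME3, PSMC4 and PSMD3 passed in all 19 alternatives run. PSMG4 (adjusted p = 0.048) lost the call in 7, without MV411 DMSO replicate 3 and without MV411 SGI-7079 replicate 2 or 3 among them. PSMG1, PSMA7 and PSMD2 lost it without those same 3 libraries, PSMB6 without MV411 SGI-7079 replicate 2 or 3, and PSMA4 without MV411 SGI-7079 replicate 2.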

How the results depend on the processing

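In MOLM13, 40 to 43 members fell and in MV411 41 to 44, over 20 alternatives each. Of the 43 that fell in each line, 40 in MOLM13 and 41 in MV411 did so in every alternative; the exceptions were PSMA6, PSMF1 and PSMG2 in MOLM13 and PSMB10 and PSMD4 in MV411. Scaling moved sizes. The MOLM13 median was -0.47 with total counts as library sizes, -0.44 on log2(FPKM + 1) and -0.47 on log2(FPKM + 0.1), where 1 member rose. The MV411 median was -0.60, -0.57 and -0.59 under these settings, -0.76 with no filter and -0.77 with the line's 6 libraries alone. Total counts moved the median of all genes in MV411 to 0.22, against 0.11; relative to all genes, the members' median lay between -0.63 and -0.47 in MOLM13 and between -0.85 and -0.63 in MV411. Between the lines in DMSO, the members' median was 0.00064, 0.00074 and 0.00085 with total counts and the 2 FPKM fits, with 11, 11 and 10 members higher and 12 lower in each. With no filter, the difference had a median of -0.16 and 0 less negative members. Leaving out 1 library gave medians of -0.57 to -0.53 in MOLM13, -0.80 to -0.66 in MV411 and -0.20 to -0.085 for the difference, with 9 to 22 more negative and 0 to 4 less negative members; the count of 9 came without MV411 SGI-7079 replicate 2. With 1 library left out, the median difference over all genes moved as well, to between -0.10 and -0.008, against -0.01 with 12 libraries. Relative to all genes, the members' median difference lay between -0.11 and -0.07 in every setting. The cause of these shifts was not tested.

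Results near 0 changed sign without passing the test. PSMB9 in MOLM13 was 0.044, 0.032 and 0.038 with total counts and the FPKM fits, and -0.144 to 0.034 with 1 library left out. PSME1 in MOLM13 was -0.00044 with 6 libraries and -0.017 to 0.039 with 1 library left out. The PSMB10 difference was -0.072 to 0.107 with 1 library left out.

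With the replicate number as a block, 43 members fell in each line (medians -0.55 and -0.71), and the difference had 14 more negative and 5 less negative members. Same-numbered libraries did not deviate together (r of -0.03 to 0.04 over 18 pairs), and the labels do not say that the numbers pair samples. With 3 libraries per group, differences near their SE were not detectable, and larger ones could be missed. Among the differences between the lines, the smallest that passed was that of PSMC1, at 0.155 ± 0.046. Larger ones that did not pass included PSMG2, at 0.190 ± 0.065, and PSMA6, at -0.459 ± 0.190.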
